A study of Mus musculus with 6 samples.

Results

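The genes described here are 9 regulators of the G1 phase of the cell cycle: the INK4 inhibitors Cdkn2a, Cdkn2b, Cdkn2c and Cdkn2d, the CIP/KIP inhibitors Cdkn1a and Cdkn1b, and the D cyclins Ccnd1, Ccnd2 and Ccnd3. Every probe that the array design names with 1 of these symbols was taken, whatever its value, which gave 19 of the 56605 probes and 9 of 37074 gene names. Hypothalamic RNA of male C57BL/6J mice was hybridized to 6 one-colour Agilent arrays, 3 labelled GSK-J4 and 3 labelled vehicle. All mice of both groups carried diet-induced obesity (DIO), from a diet with 60 kcal% fat that the methods start at an age of 6 weeks and continue for 16 weeks. GSK-J4, a small molecule that inhibits the demethylases of lysine 27 on histone H3, was given at 30 mg/kg and the vehicle at 0 mg/kg. The series places the tissue at day 4 after exposure and the methods place it at ZT 6 h, the time after lights on, with a different mouse on each array. The paper treats DIO mice for weeks and leaves the day of the arrays unstated, so the length of treatment behind these values is not settled. Each group was thus a bulk piece of hypothalamus from 3 mice, in which fewer cells of a type and less RNA per cell cannot be told apart. All vehicle arrays lay on 1 slide and all GSK-J4 arrays on another slide with its own scan, and treatment and slide cannot be told apart in any difference below. All directions follow the labels.

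In the cell cycle, D cyclins accumulate in response to growth signals and activate the kinases CDK4 and CDK6, which phosphorylate the retinoblastoma protein and thereby release E2F transcription factors for S phase. INK4 proteins bind CDK4 and CDK6 and keep the D cyclins away, whereas CIP/KIP proteins bind whole cyclin and kinase complexes, above all those of CDK2. Polycomb complexes place trimethylation on lysine 27 of histone H3, a mark of silenced genes, and the locus that holds Cdkn2a and Cdkn2b is a textbook example of a region that they repress. Most cells of the adult hypothalamus are neurons that no longer divide, and Cdkn2d and Cdkn1b are known to help keep neurons out of the cycle.

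Of the 19 probes, 15 probes of 8 genes were well above background, all of them on all 6 arrays, and entered the test together with 34443 probes kept over the whole array. The filter kept a probe that the scanner software marked as well above background on every array of 1 group or of both. Values below are log2 signals after quantile normalization, which gives all arrays the same distribution, and a difference is GSK-J4 minus vehicle on that log2 scale. Adjusted p-values are from limma with Benjamini-Hochberg adjustment over all kept probes, and a probe was called at an adjusted p of at most 0.05. The exact permutation test of a single probe has 20 orders of 3 against 3 arrays, so its smallest two-sided p is 0.1 and it cannot reach 0.05.

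Most probes of the cell cycle inhibitors and D cyclins differed by less than 1.5-fold between the groups, and Cdkn2c was the only gene called. Of the 15 kept probes, 1 was called higher, where 8.38% of all kept probes were, and 0 were called lower, where 8.4% were. At the thresholds of the study's methods, a fold of 1.5 and an unadjusted p of at most 0.05, but with p from limma, 2 probes were higher, 1 of Cdkn2c and 1 of Cdkn1a, and 0 were lower, against 4.8% and 7.85% of all kept probes. At an unadjusted p of at most 0.05 from limma without the fold there were also 2 probes, both higher. By the methods' t-test on the same values, the unadjusted p was 0.00151 with equal variances and 0.00419 without for Cdkn2c A_51_P513720, and 0.0508 and 0.0613 for Cdkn1a, which then missed that threshold. The groups did not overlap for 4 of the 15 probes, compared with 45.6% of all kept probes. The median difference of the 15 probes was 0.08 and that of all kept probes 0.02, while the median size of the difference without its sign was 0.13 and 0.25. Of the 15 differences, 13 were within 1.5-fold.

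**Figure D1:**
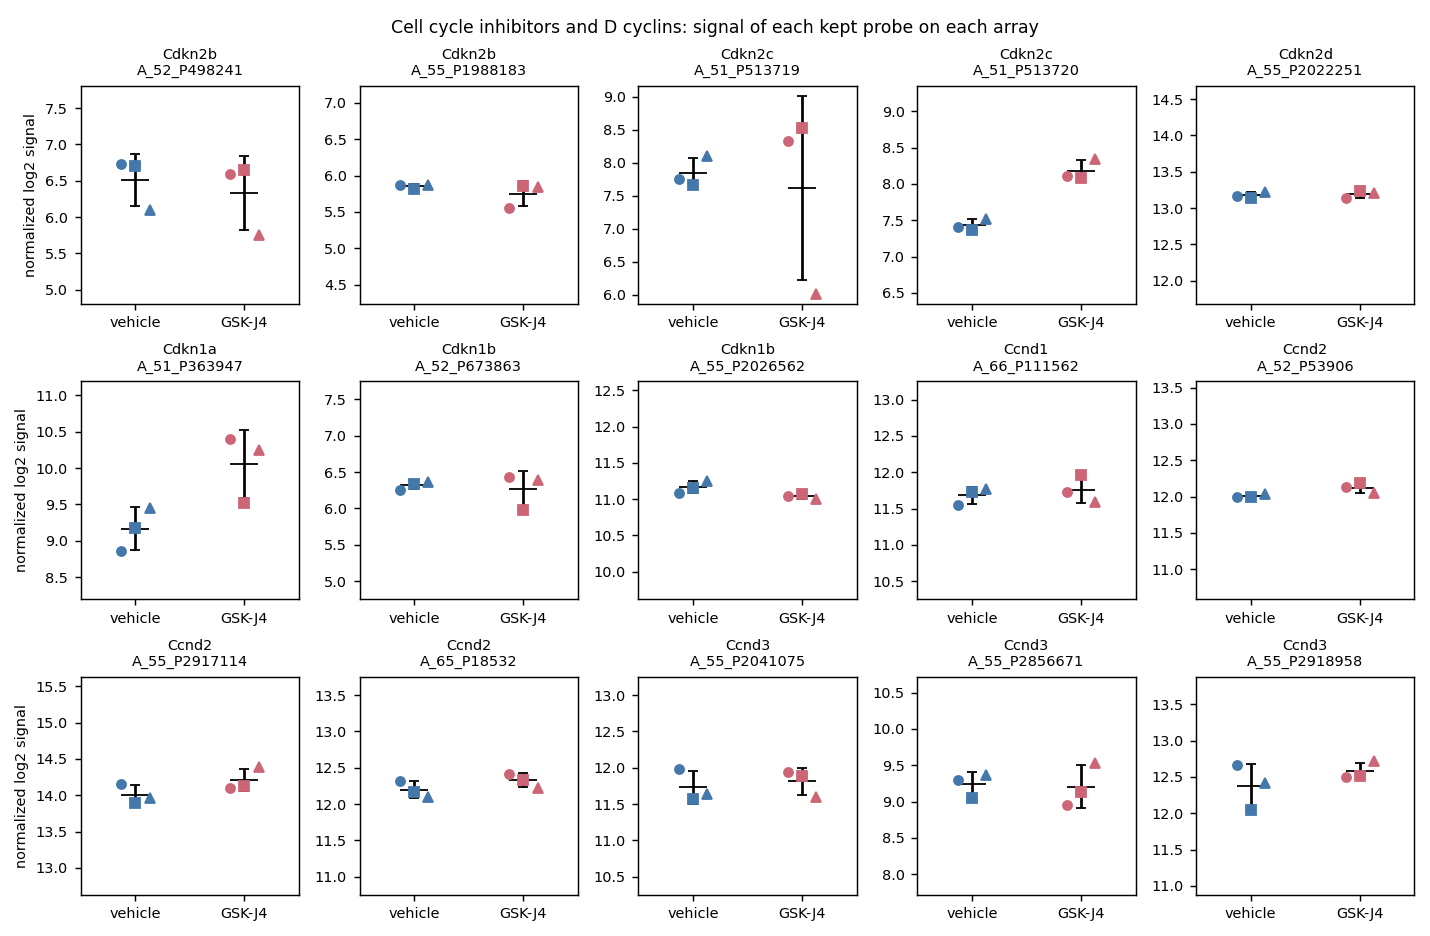
Normalized log2 signal (vertical axes) of the 15 kept probes in the vehicle and GSK-J4 groups; each point is 1 array, with a circle, square and triangle for replicates 1, 2 and 3, and the bar gives the mean with its SD (n = 3). The groups lie apart for 1 probe each of Cdkn2c, Cdkn1a, Cdkn1b and Ccnd2, and the triangle of Cdkn2c A_51_P513719 lies at 6.02, below the 5 other arrays. All panels span 3 log2 units except that of Cdkn2c A_51_P513719, which spans more.

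Among the INK4 inhibitors, Cdkn2c, which encodes p18INK4c, rose by 1 of its 2 probes. Probe A_51_P513720 read 7.41, 7.37 and 7.52 on the vehicle arrays and 8.11, 8.08 and 8.35 on the GSK-J4 arrays. All GSK-J4 arrays lay above all vehicle arrays, with a gap wider than the spread within either group. The difference was 0.75 (SE 0.10, n = 3 per group), a fold of 1.68 with a 95% interval from 1.41 to 1.99, and the adjusted p from limma was 0.0169. The exact permutation test gave p = 0.1, the smallest it can give. Before normalization the processed intensities of this probe were 237, 258 and 249 on the vehicle arrays and 200, 198 and 215 on the GSK-J4 arrays. The unscaled signal was therefore lower on the GSK-J4 arrays, on which the 75th percentile of the intensities of all spots but controls was 606 to 693, compared with 1136 to 1335 on the vehicle arrays. Without any 1 of the 3 vehicle arrays the call was lost, at adjusted p from limma of 0.0653 to 0.0713, with differences of 0.71 to 0.79.

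The other Cdkn2c probe, A_51_P513719, read 7.75, 7.67 and 8.11 on the vehicle arrays and 8.32, 8.53 and 6.02 on the GSK-J4 arrays. GSK-J4 replicates 1 and 2 lay above every vehicle array and GSK-J4 replicate 3 below every one. The difference was -0.22 (SE 0.68, n = 3 per group, adjusted p from limma 0.836), with a 95% interval from -1.89 to 1.45. Without GSK-J4 replicate 3 it was 0.58 (adjusted p from limma 0.0785). Both probes are 60 bases long and lie on the reverse strand of chromosome 4 in mm9, the build of the array design, at chr4:109333757-109333818 for A_51_P513720 and at chr4:109333779-109333838 for A_51_P513719. They share a run of 40 bases, from base 21 of A_51_P513719 and base 1 of A_51_P513720, so that a transcript bound by the shared run is read by both. A stretch of 30 bases of each, 5′ to 3′ and with the shared letters in capitals, show the start of the run in the first probe and its end in the second:
A_51_P513719: ctcacactgtCCGTTAGTTGGTTGGCTGTC
A_51_P513720: CGTTTCACTATCACTTATTAaaatataggg

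The place of the spot on the glass was therefore examined. On GSK-J4 replicate 3 the spot of A_51_P513719 lay at -2.41 against the mean of the other GSK-J4 arrays. Of the 185 kept spots within 11 rows and columns of it, 37, or 20%, also lay more than 1 below the other GSK-J4 arrays, compared with 3.17% of all kept probes on that array. Around A_51_P513720 this share was 3%, or 6 of 200 spots. The only other member with a share near 20% was the Cdkn2b probe A_52_P498241, with 53 of 258 spots, or 20.5%, and its own value on GSK-J4 replicate 3 was -0.87 against the other GSK-J4 arrays. The third-ranked share was 11.3% around the Ccnd2 probe A_55_P2917114, whose own value was 0.27 above. On GSK-J4 replicate 3 the median distance of the neighbouring spots from the other GSK-J4 arrays was 0.02 around A_51_P513719 and -0.03 around A_52_P498241. Most spots around these probes were thus not low. The part of these neighbourhoods in the values of the probes was not tested.

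**Figure D2:**
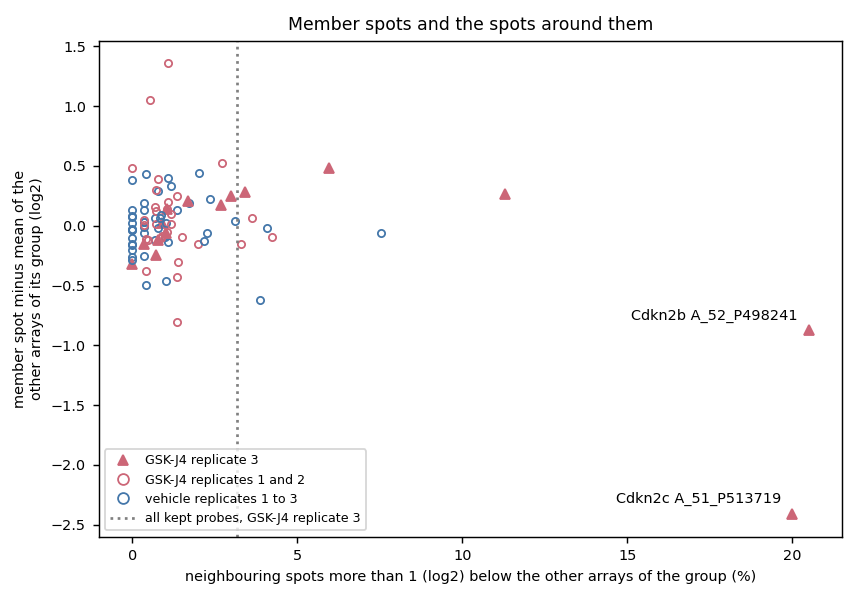
Each point is 1 member probe on 1 array. The horizontal axis gives the percent of kept spots within 11 rows and columns that lay more than 1 log2 unit below the other arrays of the group, and the vertical axis the member's own log2 distance from those arrays. Cdkn2c A_51_P513719 and Cdkn2b A_52_P498241 on GSK-J4 replicate 3 lie at the right, at 20% and 20.5%, and the dotted line marks 3.17% for all kept probes of that array.

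By a rule on the widest spread, A_51_P513719 was also the probe whose pattern over the 6 arrays was set against other named genes. The closest were Ovch2 (Pearson r 0.996), Abca9 (0.995) and Ddah1 (0.993), and 387 of 24076 probes compared had an r over 0.9. The spots of Ovch2, Abca9 and Ddah1 on GSK-J4 replicate 3 were also low, at -0.81, -2.37 and -1.06 against the other GSK-J4 arrays. The spot of Ovch2 lay 29 rows and 16 columns away, that of Abca9 269 rows and 138 columns, and that of Ddah1 279 rows and 57 columns, all outside the 11 rows and columns examined. The genes were chosen for this pattern, so their low values describe the choice, over 6 arrays.

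Cdkn2b encodes p15INK4b, the neighbour of Cdkn2a, and was measured by a pair of probes without a call. Probe A_52_P498241 read 6.73, 6.70 and 6.09 on the vehicle arrays and 6.59, 6.65 and 5.75 on the GSK-J4 arrays, a difference of -0.18 (SE 0.30, adjusted p from limma 0.700). Replicate 3 was the lowest array of each group, and without GSK-J4 replicate 3 the difference was 0.11. Probe A_55_P1988183 read 5.87, 5.81 and 5.87 on the vehicle arrays and 5.55, 5.86 and 5.85 on the GSK-J4 arrays. Its difference was -0.10 (SE 0.11, adjusted p from limma 0.522), and the groups overlapped, with GSK-J4 replicate 1 lowest.

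Cdkn2a, whose transcripts encode p16INK4a and the p53 regulator ARF, was not well above background on any of the 6 arrays by either of its probes. A_51_P144813, at chr4:88920545-88920604 of mm9, read between 1.88 and 1.91 on all arrays, and A_55_P2008437, at chr4:88920405-88920464, between 1.91 and 2.85. No fold is given for values at background, where a fall, or a rise that stayed within background, was not detectable. Cdkn2d, which encodes p19INK4d, gave a narrow result at the other end, with values of 13.16, 13.13 and 13.23 on the vehicle arrays and 13.13, 13.23 and 13.20 on the GSK-J4 arrays. The arrays of both groups were interleaved. The difference of Cdkn2d was 0.02 (SE 0.07, adjusted p from limma 0.881), with a 95% interval from 0.897-fold to 1.14-fold. When arrays were scaled to their 75th percentile in place of quantile normalization, it was 0.25 (adjusted p from limma 0.0536), without a call.

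Of the CIP/KIP inhibitors, Cdkn1a, which encodes p21 and is a target of p53, had the largest difference among the 15 kept probes but was not called. Its probe A_51_P363947, on the reference transcript NM_007669, read 8.86, 9.18 and 9.46 on the vehicle arrays and 10.41, 9.52 and 10.25 on the GSK-J4 arrays. The groups did not overlap, although GSK-J4 replicate 2 lay only just above vehicle replicate 3. The difference was 0.89 (SE 0.27, n = 3 per group), a fold of 1.86 with a 95% interval from 1.16 to 2.97. The adjusted p from limma was 0.0750, and the exact permutation test gave p = 0.1, the smallest it can give. Without GSK-J4 replicate 2 the difference was 1.16 with an adjusted p of 0.0335 from limma. The 2 further Cdkn1a probes stayed short of the mark for well above background on all arrays, so no fold is given. A_55_P1976204, on ENSMUST00000122348, read 3.51, 3.07 and 3.39 on the vehicle arrays and 1.90, 1.92 and 3.32 on the GSK-J4 arrays, and A_55_P1986282, on NM_001111099, read between 2.09 and 2.57 over all arrays. Both lie closer to the start of the gene than A_51_P363947, at chr17:29235299-29235358 and chr17:29227986-29228045 compared with chr17:29237377-29237436.

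Markers of other cells that could carry Cdkn1a were set beside it, each list summed on the linear scale over 1 probe per gene and given as log2. The 6 endothelial markers summed to 14.35 to 14.42 on the vehicle arrays and 14.44 to 14.85 on the GSK-J4 arrays, with 1 of 9 probes called higher. The 6 microglial markers summed to 13.45 to 13.57 and 13.70 to 13.79, with 0 of 8 probes called, and the 6 astrocyte markers to 15.47 to 15.57 and 15.59 to 15.69, with 2 of 14 probes called higher and 1 lower. The sums of these 3 lists did not overlap between the groups, as was so for 45.6% of all kept probes taken singly. The sums overlapped for oligodendrocytes (16.87 to 17.11 and 16.90 to 16.96), with 0 of 14 probes called. Those of their progenitors overlapped too (13.83 to 14.12 and 14.01 to 14.17), with 1 of 5 probes called higher, for Cspg4 (0.52). Those for ependyma and tanycytes overlapped narrowly (14.06 to 14.60 and 14.59 to 14.64), with 1 of 7 probes called higher, for the dim Rax (1.09). The differences of that list ran from -0.60 to 1.09, with a median of 0.40. All genes of these lists were measured above background. The part of the lists in the values of Cdkn1a and Cdkn2c was not tested. The endothelial sum was led by the brighter probe of Ly6c1, with 0.29 and no call. The called Ly6c1 probe, with 0.42, was dimmer and not part of the sum. The median difference of the 9 endothelial probes was -0.04. The 6 neuronal markers summed to 17.01 to 17.07 and 16.90 to 17.07, with overlap. Of their 14 probes 3 were called lower, for Syt1 (-1.14 and -0.68) and Snap25 (-0.75), and 1 higher, for Gad1 (0.90). The brightest probe of each of these genes was not called, with 0.07 for Syt1, -0.44 for Snap25 and -0.25 for Gad1. Direction thus differed between probes of Syt1 and of Gad1.

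Cdkn1b, which encodes p27 and holds back CDK2, was measured by a pair of probes without a call. A_55_P2026562 read 11.09, 11.16 and 11.25 on the vehicle arrays and 11.04, 11.07 and 10.996 on the GSK-J4 arrays. All GSK-J4 arrays were the lower ones, but by little. The difference was -0.13 (SE 0.08, adjusted p from limma 0.276), with a 95% interval from 0.804-fold to 1.04-fold. A_52_P673863 read 6.25, 6.34 and 6.37 on the vehicle arrays and 6.44, 5.98 and 6.39 on the GSK-J4 arrays, a difference of -0.05 (SE 0.14, adjusted p from limma 0.810), and GSK-J4 replicate 2 was its lowest array.

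The D cyclins were measured by 7 kept probes, of which 0 were called, with differences from -0.03 to 0.21. Ccnd1, the cyclin most often tied to mitogen signals, read 11.55, 11.73 and 11.77 on the vehicle arrays and 11.72, 11.96 and 11.59 on the GSK-J4 arrays by its probe A_66_P111562. The groups overlapped and the difference of Ccnd1 was 0.08 (SE 0.12, adjusted p from limma 0.683).

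Ccnd2, a D cyclin known for its role in dividing neural progenitors, was the only D cyclin with a probe whose groups did not overlap. The same was so for 45.6% of all kept probes. That Ccnd2 probe, A_52_P53906, read 11.99, 11.99 and 12.03 on the vehicle arrays and 12.13, 12.19 and 12.04 on the GSK-J4 arrays. GSK-J4 replicate 3 lay only just above vehicle replicate 3. The difference was 0.12 (SE 0.07, adjusted p from limma 0.292), and it turned to -0.07 when the GC content of the probes was corrected for. A_55_P2917114 read 14.16, 13.90 and 13.97 on the vehicle arrays and 14.11, 14.13 and 14.39 on the GSK-J4 arrays, a difference of 0.20 (SE 0.12, adjusted p from limma 0.265). A_65_P18532 read 12.32, 12.17 and 12.10 on the vehicle arrays and 12.42, 12.33 and 12.22 on the GSK-J4 arrays, a difference of 0.13 (SE 0.09, adjusted p from limma 0.371). All 3 Ccnd2 probes thus read slightly higher, except A_52_P53906 after the GC correction, and none passed the test. When arrays were scaled to their 75th percentile in place of quantile normalization, A_52_P53906 and A_55_P2917114 were called higher, with differences of 0.28 and 0.50 and adjusted p from limma of 0.0463 and 0.0221. With normexp background correction A_55_P2917114 was called as well, at 0.32 (adjusted p from limma 0.0287). The Ccnd2 probes lie on the reverse strand of chromosome 6, and A_52_P53906, at chr6:127098696-127098755 of mm9, is the one farthest upstream. It is printed whole, 5′ to 3′, as the place where the non-overlapping groups were read:
A_52_P53906: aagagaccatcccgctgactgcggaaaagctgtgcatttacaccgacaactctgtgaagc

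Ccnd3, the third D cyclin, was measured by 3 kept probes whose groups all overlapped. A_55_P2918958 read 12.66, 12.04 and 12.41 on the vehicle arrays and 12.50, 12.51 and 12.71 on the GSK-J4 arrays, a difference of 0.21 (SE 0.17, adjusted p from limma 0.421). A_55_P2041075 read 11.98, 11.56 and 11.64 on the vehicle arrays and 11.94, 11.89 and 11.60 on the GSK-J4 arrays, a difference of 0.08 (SE 0.15, adjusted p from limma 0.726). Vehicle replicate 1 was the highest vehicle array and vehicle replicate 2 the lowest by both of these probes. A_55_P2856671 read 9.30, 9.05 and 9.37 on the vehicle arrays and 8.95, 9.14 and 9.53 on the GSK-J4 arrays, a difference of -0.03 (SE 0.17, adjusted p from limma 0.906). The first 2 of these probes overlap, at chr17:47736572-47736631 and chr17:47736579-47736638, and over 53 aligned bases the probes differ at 2, A38C and G60A. Positions are counted from 1 at the 5′ end of A_55_P2918958, whose base comes first. A stretch of 30 bases around A38C, 5′ to 3′ and with the differing base in capitals, shows that these probes are near-copies that can bind the same transcripts:
A_55_P2918958: tggcccatttctatcAtgctgccttaataa
A_55_P2041075: tggcccatttctatcCtgctgccttaataa

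**Figure D3:**
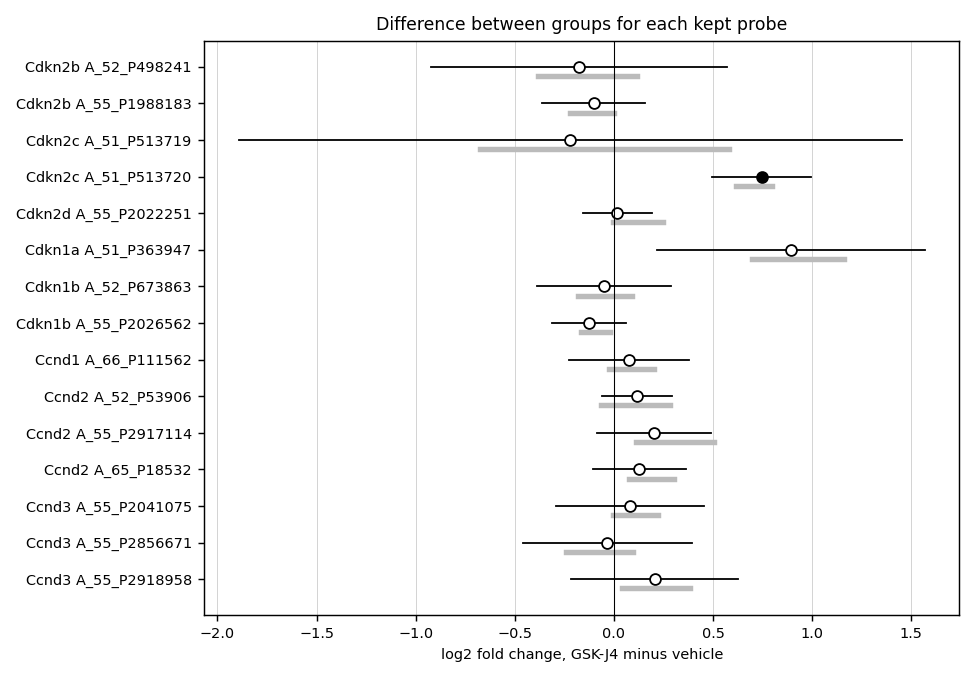
Difference of each kept probe in log2 units (horizontal axis, GSK-J4 minus vehicle, n = 3 per group); points are limma estimates with 95% intervals, filled where the adjusted p was at most 0.05, and grey bars give the range over the alternative ways of processing. Only Cdkn2c A_51_P513720 is filled, at 0.75, and Cdkn1a is the other probe whose interval lies wholly above 0.

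The 95% intervals of the 15 probes give the spread between arrays after quantile normalization, and do not cover the slide or the choice of scaling. With 75th percentile scaling Cdkn2d came to 0.25 and Ccnd2 A_55_P2917114 to 0.50, above the tops of their intervals at 0.19 and 0.49. The interval lay within 1.5-fold in either direction for 10 probes and within 2-fold for 13. The exceptions at 2-fold were the Cdkn2c probe A_51_P513719 and Cdkn1a. The interval of A_51_P513720 reached 1.99-fold.

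Base composition ran with the difference between groups over the whole array. The median difference was -0.16 for the 7890 kept probes with up to 35% GC and 0.24 for the 5376 with more than 50% GC. The 15 member probes had a median GC of 41.7%, compared with 43.3% of all kept probes. After a correction for GC content within each array, the difference of Cdkn2c A_51_P513720, which has 40% GC, was 0.75, and that of Cdkn1a, with 50% GC, was 0.73 (adjusted p from limma 0.127).

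**Figure D4:**
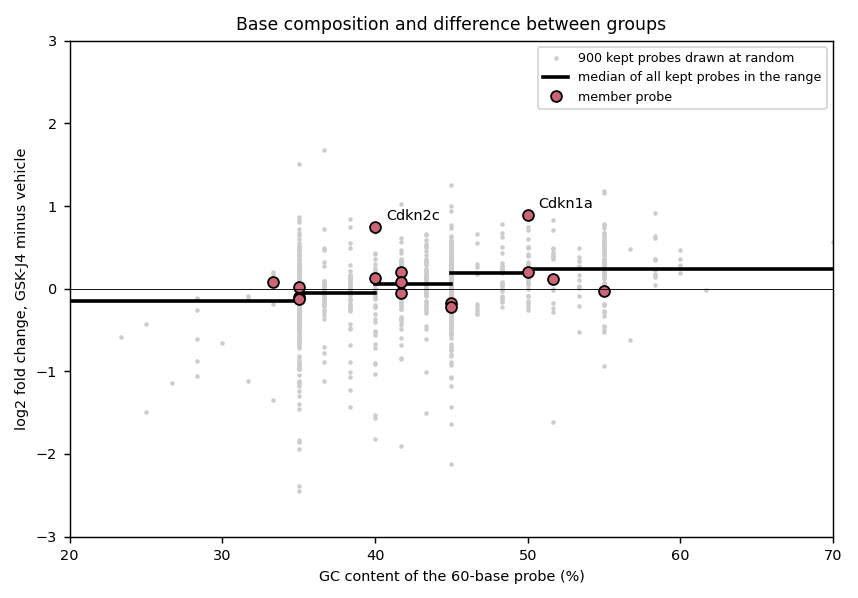
Difference between groups in log2 units (vertical axis) against the GC content of the 60-base probe in percent (horizontal axis); grey points are 900 kept probes drawn at random, black lines the median of all kept probes in each range of GC, and red points the 15 member probes. The black lines step from -0.16 to 0.24, and Cdkn2c A_51_P513720 and Cdkn1a lie above them. The other Cdkn2c probe, A_51_P513719, lies below the line of its range, at -0.22.

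Sequence features that the choice of genes did not use were looked up as well. The letters AATAAA, the usual signal for cutting and adding a poly(A) tail, stood in 4 of the 19 member probes (21.1%), namely 1 of Cdkn1a, 1 of Ccnd2 and 2 of Ccnd3, compared with 9.77% of all probes. The 2 Ccnd3 probes are the near-copies A_55_P2918958 and A_55_P2041075, so they do not count as separate places. On the opposite strand the letters stood in 0 of the 19 and in 3.85% of all probes. In the RefSeq promoters of GRCm38.p6, 300 bases around each start, 7 of the 9 genes matched with 11 starts. Their number of CG pairs, the same on both strands, had a median of 22, compared with 7 over all 32851 promoters, and ran from 2 at a Cdkn1a start to 45 at a Cdkn2a start, a number reached by 1.93% of all promoters.

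The other genes of the pathway were taken as 10 lists with 78 genes, of which 71 genes with 119 probes were kept. Of these probes 11 were called higher and 7 lower, or 15.1% in all. Over the whole array 5781 of 34443 kept probes were called, 2888 higher (8.38%) and 2893 lower (8.4%). The share of pathway probes called was thus not above that of the whole array. Each of the 18 calls fell on a different gene. Without any 1 of the vehicle arrays 0 of these probes were called, and over the whole array only 11 to 25 probes were.

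Partners of the D cyclins did not pass the test. The 4 probes of Cdk4 had differences from 0.12 to 0.20, the probe of Cdk6 had -0.66 (adjusted p from limma 0.113), and the 2 probes of Rb1, the gene of the retinoblastoma protein, had 0.05 and -0.30. In the list of cell cycle kinases 1 of 12 probes was called, for Ccnh, which encodes the cyclin of the CDK-activating kinase and fell by 0.43. All 4 Ccnh probes were below 0. In the Rb family 0 of 4 probes were called.

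The E2F and DP factors, which the retinoblastoma protein holds back, went both ways, with 2 of 14 probes higher and 2 lower. E2f3, an activator, and E2f7, a repressor, rose by 0.57 and 0.47, each by its only kept probe. E2f6 fell by 0.52 by 1 probe and had 0.11 by its other probe, and Tfdp2, a dimer partner of E2Fs, fell by 0.88 by 1 of 4 probes. Of the cyclins E, A and B only Ccna1, the germline A cyclin, was called, at 0.42 by 1 of 2 probes, with 0 of 7 probes lower.

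Genes of S phase and mitosis are those that E2Fs switch on in dividing cells. In the licensing and S phase list 2 of 18 probes rose, for Rrm2, a subunit of ribonucleotide reductase (0.32), and Gmnn, the inhibitor of licensing (0.34), and 1 fell, for the sliding clamp Pcna (-0.28). In the list of mitosis and proliferation markers 1 of 10 probes rose, for Cdc20, an activator of the anaphase-promoting complex (0.46), and 0 fell. Mki67 and Top2a, markers of dividing cells, had 0.29 and 0.25 without a call.

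**Figure D5:**
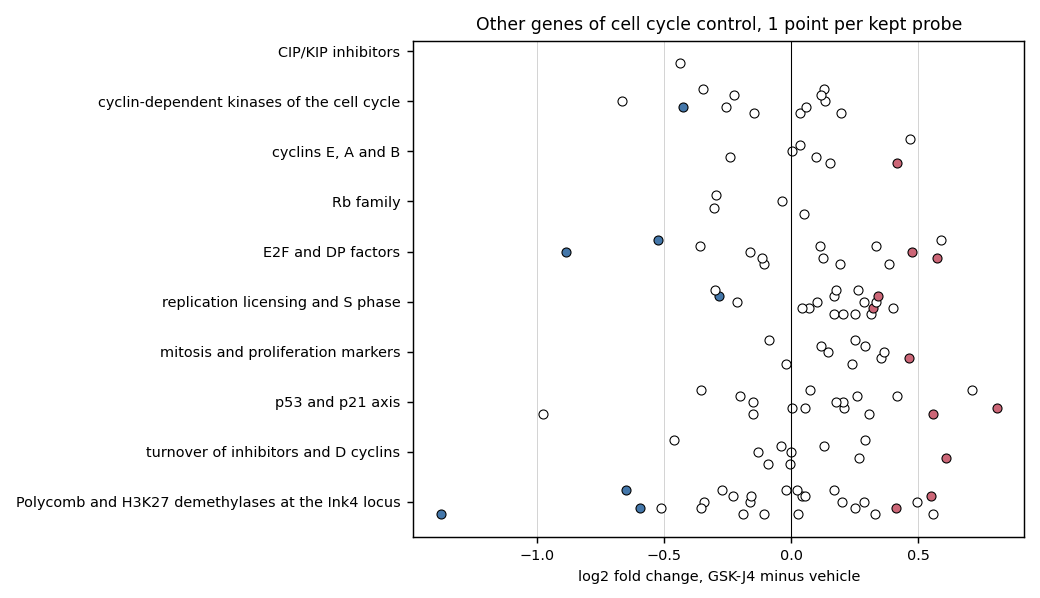
Difference between groups in log2 units (horizontal axis) for the 119 kept probes of 10 lists of cell cycle genes (vertical axis), 1 point per probe; red points were called higher, blue points lower and open points were not called. The 11 red and 7 blue points are spread over 8 of the lists, and 1 probe each of Mdm4, Cry1, Suz12 and Kdm6a was at background on the GSK-J4 arrays, so its place is not a measured fold.

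In the p53 and p21 list 2 of 17 probes rose and 0 fell. Trp53, the gene of p53, read 7.39, 7.80 and 7.71 on the vehicle arrays and 8.37, 8.56 and 8.38 on the GSK-J4 arrays by its only kept probe. The groups did not overlap and the difference of Trp53 was 0.81 (SE 0.13, adjusted p from limma 0.0218). Sesn2, a stress-induced target of p53, rose by 0.56 (adjusted p from limma 0.0221). Mdm2, a p53 target as well as its ubiquitin ligase, had -0.20 and 0.00 by its probes and was not called.

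In the list of proteins that set the turnover of inhibitors and D cyclins 1 of 10 probes was called, for Cry1, a clock repressor that also guides ubiquitination. Its probe A_55_P2880103 rose by 0.61. That probe was dim, at 5.75 to 6.51 over the 6 arrays, and has 60% GC, where the median difference of all kept probes was 0.24. The other Cry1 probe, A_52_P420500, had means of 4.41 on the vehicle arrays and 3.95 on the GSK-J4 arrays. On the GSK-J4 arrays it was nowhere well above background, so no fold is given. The paper reports the opposite direction, with Cry1 lower after GSK-J4 in its microarray data and by real-time PCR. Skp2, the F-box protein that marks p27 for degradation, had -0.04.

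The Polycomb proteins and H3K27 demethylases had 2 of 26 probes higher and 3 lower. Cbx7, a reader of the mark that is known to bind at the Ink4 locus, rose by 0.41 by 1 of 2 probes. Its other probe was far brighter and had -0.16 without a call. Ezh2, the methyltransferase, rose by 0.55 by 1 of 5 probes, and its other probes had -0.02 to 0.49 without a call. Rnf2, the ubiquitin ligase of the first Polycomb complex, fell by 0.60 by 1 of 3 probes, all of which were below 0. Suz12, a core subunit of the second complex, and Kdm6a, a target of GSK-J4, each had 1 of 3 probes called lower. On the GSK-J4 arrays that probe was nowhere well above background. The other probes, all brighter and none called, had -0.16 and 0.02 for Suz12 and -0.51 and 0.05 for Kdm6a. Both probes entered the test through the vehicle arrays alone, so their folds are not measured. They were set against the lowest signal of any probe well above background on each GSK-J4 array. The vehicle mean lay 1.24-fold above that level for the Suz12 probe and 1.39-fold above it for the Kdm6a probe. That level is not the detection limit of these spots and leaves out the spread between arrays, so it gives no certain least fold. Kdm6b, the demethylase best known at the Ink4 locus, had 0.25 (adjusted p from limma 0.149).

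The last CIP/KIP inhibitor, Cdkn1c, encodes p57 and is known from choroid plexus, the tissue that makes cerebrospinal fluid. Its probe read 12.38, 9.83 and 10.11 on the vehicle arrays and 10.29, 10.48 and 10.25 on the GSK-J4 arrays, so that vehicle replicate 1 stood apart. The 6 choroid plexus markers, all measured, summed to 11.63 to 16.75 on the vehicle arrays and 11.51 to 13.60 on the GSK-J4 arrays. Ttr, the most abundant of them, read 16.15 on vehicle replicate 1 and 10.42 to 13.24 on the other arrays by its probe A_65_P19832. The part of choroid plexus in the level of Cdkn1c was not tested. Of the 8 markers of hypothalamic neurons 6 had a kept probe, among them Npy, Pomc and Cartpt, while Avp and Pmch were well above background on 3 of the 6 arrays each. This list summed to 11.75 to 11.88 on the vehicle arrays and 12.24 to 12.38 on the GSK-J4 arrays, without overlap, with 2 of 7 probes called higher, for Npy (0.42) and Pomc (0.86), and a median difference of 0.42. Npy led this sum, at 11.46 to 12.04 over the 6 arrays, while the kept probes of Agrp, Hcrt and Oxt were dim, at 4.43 to 6.44. The sum thus describes mainly Npy. The part of these markers in the values of the cell cycle genes was not tested.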

How the data were processed

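Hypothalamic RNA of 6 mice, 3 per group, was measured on Agilent SurePrint G3 mouse arrays. The scanner files hold processed signal intensity as deposited by the authors, made with Agilent Feature Extraction 10.7.1.1 according to the submitters' processing notes, and the authors also deposited a table of quantile-normalized log2 values of the same arrays. Control spots and outlier flags were left out, spots of a probe were averaged on the log2 scale, and the 6 arrays were quantile normalized. Groups were compared with limma 3.58.1 in R 4.3.3 (lmFit and eBayes, two-sided, no covariates), and single probes with the exact permutation test. The test was tested on simulated data. Within groups, arrays correlated at 0.978 to 0.995, and between 57.7% and 63.6% of probes were well above background. The labels number the replicates in both groups, but the deviations of same-numbered arrays correlated at 0.01 to 0.08, so no block was used. There were 0 unassigned columns.

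All probes of the 9 genes were named, and from the pathway lists the genes with a call, with a few further genes given as values. The members and lists were chosen with earlier results of these data known. Genes were named from the array design. Alternatives were the 75th percentile scaling, normexp with an offset of 50, the deposited table, other filters and detection flags, 1 probe per gene, other variance models, the methods' t-test, array weights, a replicate block, a GC correction (lowess, span 30%) and dropping each array in turn. Experiments other than the arrays were not analysed here.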

Additional observations from a re-analysis of the deposited data

How the results depend on the processing

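The number of member probes called higher was 1, and it was 3 with 75th percentile scaling, 2 with normexp, 2 at the thresholds of the methods, 0 with the methods' t-test without equal variances and 0 to 2 when each array was left out, while 0 were called lower under all alternatives run. The count of 0 from that t-test stands beside 34 higher and 25 lower probes over the whole array. With the replicate number as a block 0 member probes and 0 pathway probes were called in either direction, as were 0 probes of the whole array. Pathway probes called higher numbered 11, and 7 with 75th percentile scaling, 5 without a filter on dim probes, 5 with the laxer detection flag, 0 and 7 with the methods' t-test without and with equal variances, and 0 to 6 when each array was left out. Those called lower numbered 7, and 4 without a filter, 1 with 1 probe per gene, 0 and 3 with the same t-tests, and 0 to 5 when each array was left out. Cdkn2c A_51_P513720 stayed between 0.62 and 0.80 over 19 alternatives and past the threshold in 14 of them, with adjusted p from limma and the methods' t-test of 0.0126 to 0.0882. Cdkn1a stayed between 0.70 and 1.16 and passed in 1.

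Signs of differences near 0 turned. With normexp Ccnd3 A_55_P2856671 came to 0.013 and Ccnd1 to -0.0089, with array weights Cdkn2c A_51_P513719 to 0.089, and with the GC correction Ccnd2 A_52_P53906 to -0.065. When each array was left out, the difference ran from -0.19 to 0.094 for Ccnd3 A_55_P2856671, from -0.0026 to 0.21 for Ccnd3 A_55_P2041075, from -0.024 to 0.16 for Ccnd1, from -0.0045 to 0.045 for Cdkn2d, from -0.15 to 0.00020 for Cdkn2b A_55_P1988183, from -0.38 to 0.11 for Cdkn2b A_52_P498241, from -0.14 to 0.092 for Cdkn1b A_52_P673863, and from -0.67 to 0.58 for Cdkn2c A_51_P513719. The causes were not tested. The split of all called probes was 50% higher, compared with 35.5% after the GC correction and 58.1% when arrays were scaled to their 75th percentile. The signal of the GSK-J4 arrays over background limits dim probes, and 3 arrays per group limit the precision.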
